A study of Mus musculus with 4 samples.

Results

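Interferon-stimulated genes are genes whose transcription rises when a cell receives interferon. Here they are a named list of 42 mouse genes, chosen by symbol among the 31053 genes of the deposited matrices, and each of the 42 had at least 1 UMI (unique molecular identifier, a count of captured RNA molecules) in each of the 4 libraries. The cells were eGFP+ cells of the stromal vascular fraction of inguinal white fat, sorted live and single from male mice that carry a ChAT-eGFP bacterial artificial chromosome reporter, so that eGFP marks use of the choline acetyltransferase gene. All mice were 5 weeks old at the start and lived at 30 °C for 3 weeks. Mice of the 30 °C group stayed there for a further 4 h, and mice of the 4 °C group spent 24 h at room temperature and then 4 h at 4 °C, a difference that cannot be told apart from the cold itself. Each group had 2 libraries, and each library pooled the cells of 4 mice.

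Type I interferons bind IFNAR1 and IFNAR2, and the kinases JAK1 and TYK2 then activate STAT2, which binds IRF9 and acts on the interferon-stimulated response element (ISRE). Interferon gamma binds IFNGR1 and IFNGR2, and its signal acts on gamma-activated sites (GAS). Many of the induced proteins block steps of viral replication, sense foreign nucleic acid or attack the vacuoles of intracellular pathogens, and several feed back on the pathway.

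After filtering, 5191, 5388, 5329 and 5345 cells remained in the 4 libraries, and the median depth lay between 7520 and 8068 UMIs per cell. Pairs of libraries shared at most 0.262% of their barcodes. Cells were assigned by lists of marker genes that contain no interferon-stimulated gene. Of the 21253 cells, 8182 were B cells, 6953 αβ T cells, 924 macrophages, 858 germinal centre B cells, 603 γδ T cells, 359 plasma cells, 267 dendritic cells, 255 group 2 innate lymphoid cells (ILC2), 124 stromal cells and 92 lymphatic endothelial cells, and 2636 were left unassigned. Plasmacytoid dendritic cells, a known source of type I interferon, were nearly absent, with 0, 0, 1 and 1 cells carrying 3 of their 4 markers. The macrophage gate held 155, 175, 439 and 155 cells in the 4 libraries. Levels below are UMIs summed over the cells of a type in a library and scaled to a total of 1000000 over all genes (CPM). Values in 4 libraries are given in the order 30 °C replicates 1 and 2, then 4 °C replicates 1 and 2.

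The promoters show which binding letters the module shares. RefSeq promoter entries (GRCm38.p6) were found for 33 of the 42 genes, and the 250 bases before each start were searched on both strands for GAAANNGAAA, the letters of an ISRE, and TTCNNNGAA, the letters of a GAS, with overlapping matches counted. ISRE letters were present in 19 of the 33 genes (57.6%), against 936 of 27025 genes with an entry (3.46%). GAS letters were present in 5 of the 33 (15.2%), against 8.13% of all genes. By role, ISRE letters were found in 9 of 13 antiviral effectors and in 5 of 6 interferon-inducible GTPases, but in 1 of 3 transcription factors and 1 of 3 sensors. The 9 genes without an entry were Dhx58, Ifi204, Ifi27l2a, Mx1, Oas2, Parp14, Rtp4, Usp18 and Zbp1. The 6 promoters below are examples that carry these letters, chosen after the values were seen, from genes described in the comparisons that follow. Oasl2 and Samd9l, which also recur there, had no match in their windows. Each is read 5′ to 3′ along its gene with the ISRE letters of either strand in capitals.
Isg15 (chr4:156200819-156201068, minus strand): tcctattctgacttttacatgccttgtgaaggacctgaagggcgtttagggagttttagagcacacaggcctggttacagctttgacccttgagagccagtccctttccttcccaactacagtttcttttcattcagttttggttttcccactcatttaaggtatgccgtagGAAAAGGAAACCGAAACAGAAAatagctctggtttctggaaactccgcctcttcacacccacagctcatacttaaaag
Ifit1 (chr19:34640639-34640888, plus strand): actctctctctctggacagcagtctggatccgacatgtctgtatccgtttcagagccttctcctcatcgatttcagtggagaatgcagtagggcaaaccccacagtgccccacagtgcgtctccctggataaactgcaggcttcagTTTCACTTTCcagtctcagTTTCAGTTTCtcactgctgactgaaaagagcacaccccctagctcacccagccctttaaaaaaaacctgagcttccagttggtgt
Ifit3 (chr19:34583279-34583528, plus strand): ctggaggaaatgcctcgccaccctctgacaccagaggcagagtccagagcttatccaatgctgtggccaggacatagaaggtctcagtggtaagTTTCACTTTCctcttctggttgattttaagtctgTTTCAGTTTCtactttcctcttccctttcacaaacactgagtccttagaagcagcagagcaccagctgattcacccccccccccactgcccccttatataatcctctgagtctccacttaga
Ddx60 (chr8:61927837-61928086, plus strand): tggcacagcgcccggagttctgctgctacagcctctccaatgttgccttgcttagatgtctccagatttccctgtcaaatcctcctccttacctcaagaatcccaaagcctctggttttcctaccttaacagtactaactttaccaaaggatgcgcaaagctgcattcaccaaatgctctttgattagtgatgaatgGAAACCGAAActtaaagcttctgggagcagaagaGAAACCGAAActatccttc
Gbp3 (chr3:142559794-142560043, plus strand): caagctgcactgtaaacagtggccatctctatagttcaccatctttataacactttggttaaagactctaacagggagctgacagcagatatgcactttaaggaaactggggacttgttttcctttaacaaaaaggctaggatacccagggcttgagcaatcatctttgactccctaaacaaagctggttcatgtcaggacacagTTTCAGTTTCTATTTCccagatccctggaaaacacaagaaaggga
Gbp7 (chr3:142530086-142530335, plus strand): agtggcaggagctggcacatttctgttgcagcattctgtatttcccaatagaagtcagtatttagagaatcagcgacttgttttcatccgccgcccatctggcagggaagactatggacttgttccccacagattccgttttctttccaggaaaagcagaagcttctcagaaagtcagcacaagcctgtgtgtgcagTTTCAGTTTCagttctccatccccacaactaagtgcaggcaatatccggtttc
In the GENCODE annotation of GRCm38, these genes (Ensembl identifiers as in the matrices) were Isg15 (ENSMUSG00000035692, chr4:156199424-156200818), Ifit1 (ENSMUSG00000034459, chr19:34640871-34650009), Ifit3 (ENSMUSG00000074896, chr19:34583531-34588731), Ddx60 (ENSMUSG00000037921, chr8:61928087-62038244), Gbp3 (ENSMUSG00000028268, chr3:142560026-142573209) and Gbp7 (ENSMUSG00000040253, chr3:142530342-142550149). Positions count the bases between the end of a match and the start. In Isg15, 3 overlapping matches ended 68, 62 and 56 bases before the start. Ifit1 had matches at 94 and 75 bases and Ifit3 at 146 and 112 bases. Ddx60 had matches at 43 and 9 bases. The neighbouring guanylate-binding protein genes Gbp3 and Gbp7 also carried the element, with 2 overlapping matches at 35 and 29 bases in Gbp3 (shown from the first of its 2 RefSeq starts) and 1 match at 43 bases beside 2 matches to GAS letters in Gbp7.

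The level of the module differed widely between cell types before any comparison of temperatures. Summed over the 42 genes, macrophages held between 2611 and 4121 CPM, αβ T cells between 2784 and 3784 CPM and B cells between 1231 and 1882 CPM. Plasma cells held between 536 and 819 CPM. CPM is a share of all UMIs, and plasma cells had median depths of 31199, 27963, 31498 and 29742 UMIs per cell. In B cells these were 7864, 7356, 8117 and 7963 UMIs, and the part of this difference in the low plasma cell level was not tested. For αβ T cells 1 gene, Ifi27l2a, which encodes a small protein of the ISG12 family, made up much of the sum, with a mean of 1820 CPM, and without it the range was 1317 to 1777 CPM. The gene also weighed on the other sums. Without it macrophages held between 1794 and 3187 CPM, B cells between 814 and 1216 CPM and plasma cells between 351 and 501 CPM. By mean level over the 4 libraries, stromal cells ranked first of the 10 cell types for 12 genes, macrophages for 10, αβ T cells for 7, lymphatic endothelial cells for 7, dendritic cells for 3, B cells for 2 and ILC2 for 1. The order differed by temperature, since stromal cells ranked first for 23 genes by the mean at 30 °C and for 5 at 4 °C, and macrophages for 8 and 17. The stromal levels came from 27, 30, 40 and 27 cells, and the part carried by few of these is given below. For 7 of the 42 genes the lowest library of the first cell type lay above the highest library of the second. These were Oasl1, Oas1a, Oas2 and Trim30a in macrophages, Mx1 in dendritic cells, Bst2 in lymphatic endothelial cells and Ifi27l2a in αβ T cells. For the other 35 genes the libraries of the first and second cell type overlapped. The same count was not made over all genes, so it is a description of the members. Cell types of a library come from the same pool of mice. Compared within each library, the first cell type still lay above the second in every library for Irf9, Oas3, Ifi44, Ifi209, Igtp, Parp14 and Samd9l.

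**Figure D1:**
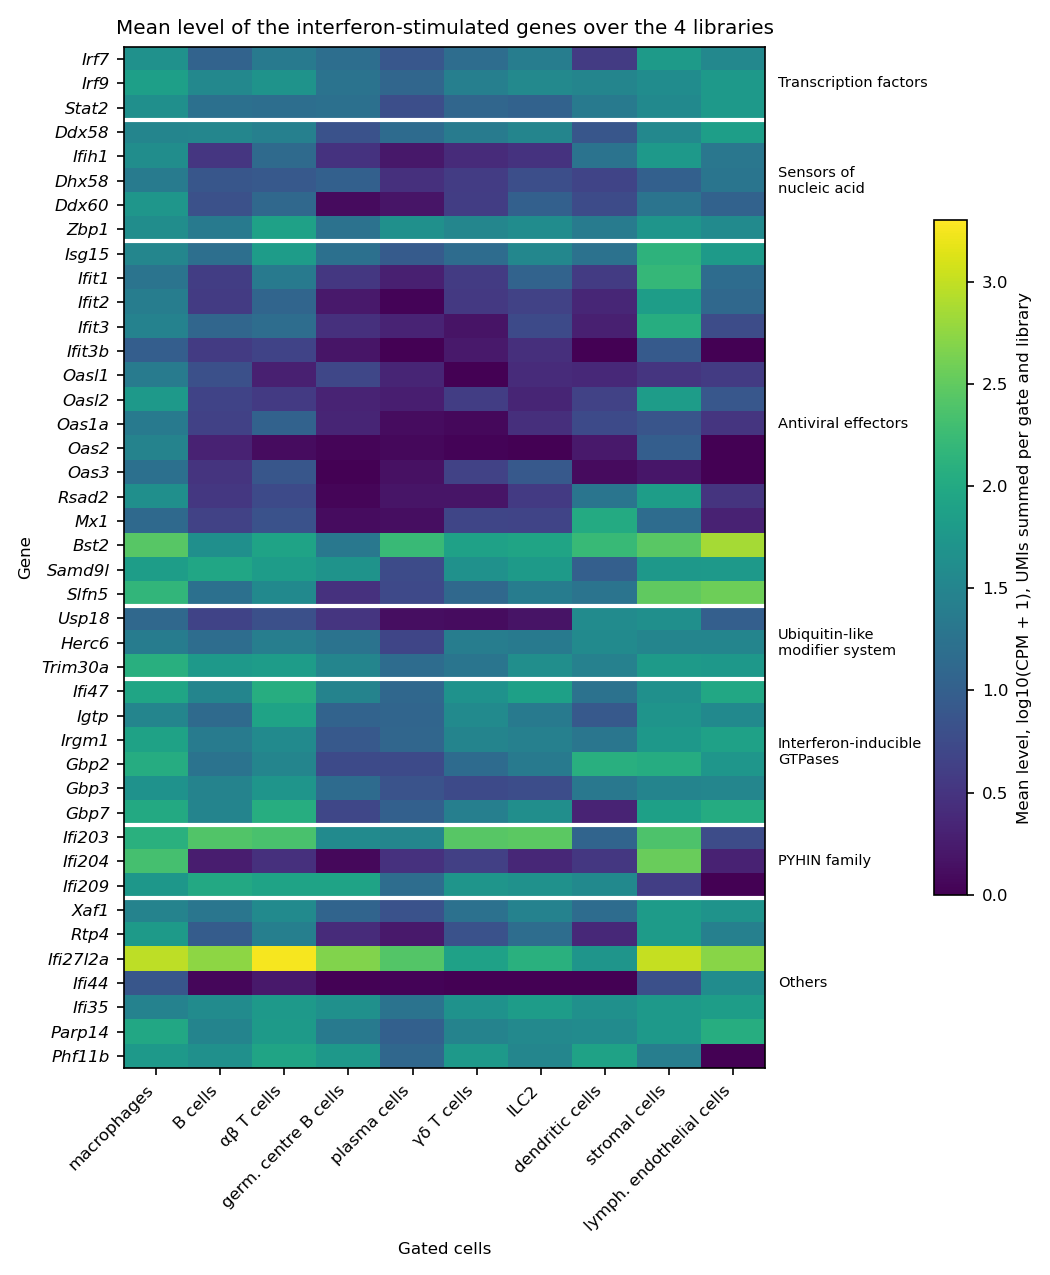
Mean level of each of the 42 genes over the 4 libraries in 10 cell types, as log10(CPM + 1) on the colour scale, with genes grouped by role. Along their rows, the oligoadenylate synthetase gene Oas2 and the synthetase-like gene Oasl1 are brightest in macrophages (29.0 and 22.6 CPM). Ifi27l2a reaches 1820 CPM in αβ T cells.

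Macrophages, B cells and αβ T cells were compared with each other within libraries (edgeR, library as a block). In macrophages 33 of the 42 genes were higher than in B cells and 5 were lower, while 35.1% of all genes tested were higher and 36.1% lower, so that a call in either direction was common among all genes. The median log2 difference of the members was 1.22, against -0.047 over all genes. All 3 transcription factors (Irf7, Irf9 and Stat2), 14 of 15 antiviral effectors and 5 of 6 GTPases were higher in macrophages. The largest differences were those of Ifi204, a cytosolic and nuclear DNA-binding protein of the PYHIN family (log2 difference 7.52 ± 0.32 SE, adjusted p = 3.8e-07), Ifi44 (5.07 ± 0.57) and Oas2, which makes the 2-5A messenger that activates RNase L (4.28 ± 0.22). Ifi204 stood at 223, 203, 195 and 212 CPM in macrophages and at 1.14, 0.378, 1.42 and 0.327 CPM in B cells. The PYHIN gene Ifi203 went the other way, with 79.5, 83.2, 160.3 and 175 CPM in macrophages and 232, 215, 269.8 and 279 CPM in B cells (log2 difference -1.58 ± 0.17). Its relative Ifi209 (-1.34 ± 0.12) and Samd9l, a restriction factor for poxviruses (-1.0 ± 0.16), were also lower in macrophages. Oas2 stood at 25.3, 21.9, 33.5 and 35.4 CPM in macrophages and at 1.19, 0.486, 1.36 and 1.17 CPM in B cells, with every macrophage library above every B cell library. Ifi44 stood at 5.55, 1.16, 6.75 and 13.0 CPM in macrophages, and its 11 UMIs in B cells came to 0.199, 0, 0 and 0.327 CPM. Ifi209 stood at 37.0, 45.1, 72.7 and 64.8 CPM in macrophages and at 79.6, 71.9, 113 and 127 CPM in B cells, lower in macrophages within each library.

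Against αβ T cells, 26 of 42 genes were higher in macrophages and 9 were lower, with 35.2% and 36.8% of all genes. The higher genes were led by Ifi204 (6.76 ± 0.36), Oas2 (6.53 ± 0.32) and Oasl1 (4.45 ± 0.23). The lower genes were led by Igtp, a GTPase that acts on pathogen vacuoles (-1.51 ± 0.18), and Isg15, the ubiquitin-like modifier (-1.19 ± 0.15), then Ifi35 (-1.15 ± 0.12). Oasl1 stood at 20.3, 20.8, 22.8 and 26.6 CPM in macrophages, 4.68, 4.00, 6.39 and 6.45 CPM in B cells and 0.731, 0.725, 0.894 and 1.56 CPM in αβ T cells. Ifi35 stood at 26.5, 28.9, 29.9 and 25.9 CPM in macrophages and 64.4, 52.8, 59.3 and 57.0 CPM in αβ T cells. Neither gene overlapped between macrophages and αβ T cells. Between the lymphocytes, 24 of 40 genes tested were lower in B cells than in αβ T cells and 7 were higher, with 37.2% and 36.9% of all genes. All 6 GTPases were lower in B cells. Ifit1, which binds viral RNA lacking 2′-O methylation (-2.37 ± 0.30), Igtp (-2.27 ± 0.09) and Ifih1, which encodes the RNA sensor MDA5 (-2.04 ± 0.23), had the largest negative differences. Oasl1, a member of the oligoadenylate synthetase-like family, was the gene with the largest positive one (2.87 ± 0.19), followed by Samd9l (0.84 ± 0.10) and Ddx58, which encodes the RNA sensor RIG-I (0.67 ± 0.06). Ifih1 stood at 1.69, 2.11, 3.79 and 1.82 CPM in B cells and 14.3, 8.05, 13.1 and 15.3 CPM in αβ T cells, and Ddx58 at 28.8, 24.7, 36.9 and 35.4 CPM and 26.1, 20.7, 27.4 and 30.8 CPM.

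In macrophages 19 of the 42 genes rose at 4 °C and 0 fell (edgeR), against 8.21% of all genes tested that rose and 7.68% that fell. The median log2 fold change of the 42 genes was 0.71, against -0.0018 over all 9266 genes tested, and 39 of the 42 were above 0. DESeq2 called 7 higher and 0 lower. The rise took in 4 of 5 sensors of nucleic acid and 4 of 6 GTPases, 5 of 15 antiviral effectors, 2 of 3 PYHIN genes, 1 of 3 genes of the ubiquitin-like modifier system, 3 of 7 others and 0 of 3 transcription factors (1 of the 3, Irf7, had 34.5, 24.8, 41.3 and 80.4 CPM and an adjusted p of 0.094).

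Gbp3 changed most of the 19 and stood at 19.7, 21.9, 65.4 and 81.1 CPM. Both cold libraries lay far above both warm ones, and the log2 fold change was 1.73 ± 0.19 (adjusted p = 0.00022). Ddx60, a helicase that has been linked to RIG-I signalling, stood at 24, 26.0, 76.6 and 85.9 CPM (1.63 ± 0.16, adjusted p = 0.00013). The warm pair and the cold pair again did not overlap. Samd9l stood at 40.7, 40.4, 94.5 and 92.0 CPM (1.15 ± 0.13, adjusted p = 0.00030), and within each temperature its libraries nearly coincided. Ifi203 stood at 79.5, 83.2, 160.3 and 175 CPM (0.98 ± 0.12, adjusted p = 0.00035). Oasl2 stood at 41.9, 35.8, 76.1 and 86.6 CPM (1.00 ± 0.15, adjusted p = 0.0017). These 5 genes, Gbp7 and Phf11b were called also with each library left out in turn. For Gbp7, the values were 68.4, 67.6, 112 and 148 CPM (0.85 ± 0.15, adjusted p = 0.0045).

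The antiviral genes most used as markers of type I interferon were less even between the warm libraries. Ifit1 stood at 14.8, 2.31, 25.7 and 27.3 CPM (1.59 ± 0.47, adjusted p = 0.044). Its warm libraries differed by more than the cold ones did, and the counts behind them were 24, 4, 99 and 40 UMIs. Isg15 stood at 27.1, 11, 36.1 and 53.9 CPM (1.13 ± 0.34, adjusted p = 0.047). Igtp stood at 16.6, 23.1, 38.2 and 45.7 CPM (0.99 ± 0.22, adjusted p = 0.014; -0.092 in a gate with more markers required), and Ddx58 at 19.7, 20.8, 35.3 and 47.7 CPM (0.93 ± 0.22, adjusted p = 0.018). In all of these both cold libraries were above both warm ones. The remaining called genes were Gbp2, Zbp1 (a sensor of Z-form nucleic acid), Phf11b, Ifi209, Rtp4, Parp14 (a mono-ADP-ribosyltransferase), Ifih1, Slfn5 and Trim30a, with log2 fold changes from 0.40 to 0.80. Members that did not pass the test included Ifit3 (26.5, 8.66, 35.0 and 42.3 CPM), Rsad2, which encodes viperin (44.4, 15.6, 39.2 and 71.6 CPM), and Ifi204. The 23 members that did not pass ranged from -0.12 for Ifi204 to 1.38 for Ifi44 in log2 fold change. In macrophages without 30 °C replicate 2 the count was 11, and a gate with more markers required left 7 of 34 tested.

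The macrophage gate was split by Folr2, Lyve1, Timd4 and Cd163, markers of resident macrophages, after the values had been seen. Cells with at least 2 of these 4 markers made up 82.6%, 76%, 65.8% and 65.2% of the macrophages, so the share was lower in both cold libraries. Among these cells 26 of 41 genes tested rose and 0 fell, against 8.91% and 8.39% of all genes in that fit, with a median log2 fold change of 0.96. Ddx60 stood there at 23.8, 29.3, 101 and 119 CPM, and Samd9l at 31.8, 38.0, 111 and 117 CPM. In the cells with fewer than 2 of the markers, 0 of 33 were called by edgeR, against 3.08% of all genes, 3 had an unadjusted p under 0.05, and the median was 0.11. DESeq2 was not run on these subsets. Ddx60 stood there at 24.8, 17, 37 and 30.7 CPM. Those cells numbered 27, 42, 150 and 54, and the difference between both subsets was not tested. Markers of dendritic cells summed to 23.4, 18.5, 33.2 and 72.9 CPM in the macrophage gate, and those of germinal centre B cells to 10.5, 16.8, 49.8 and 48.4 CPM, higher after cold for both lists. Their part in the rise was not tested. The 6 defining markers summed to between 14427 and 16686 CPM.

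**Figure D2:**
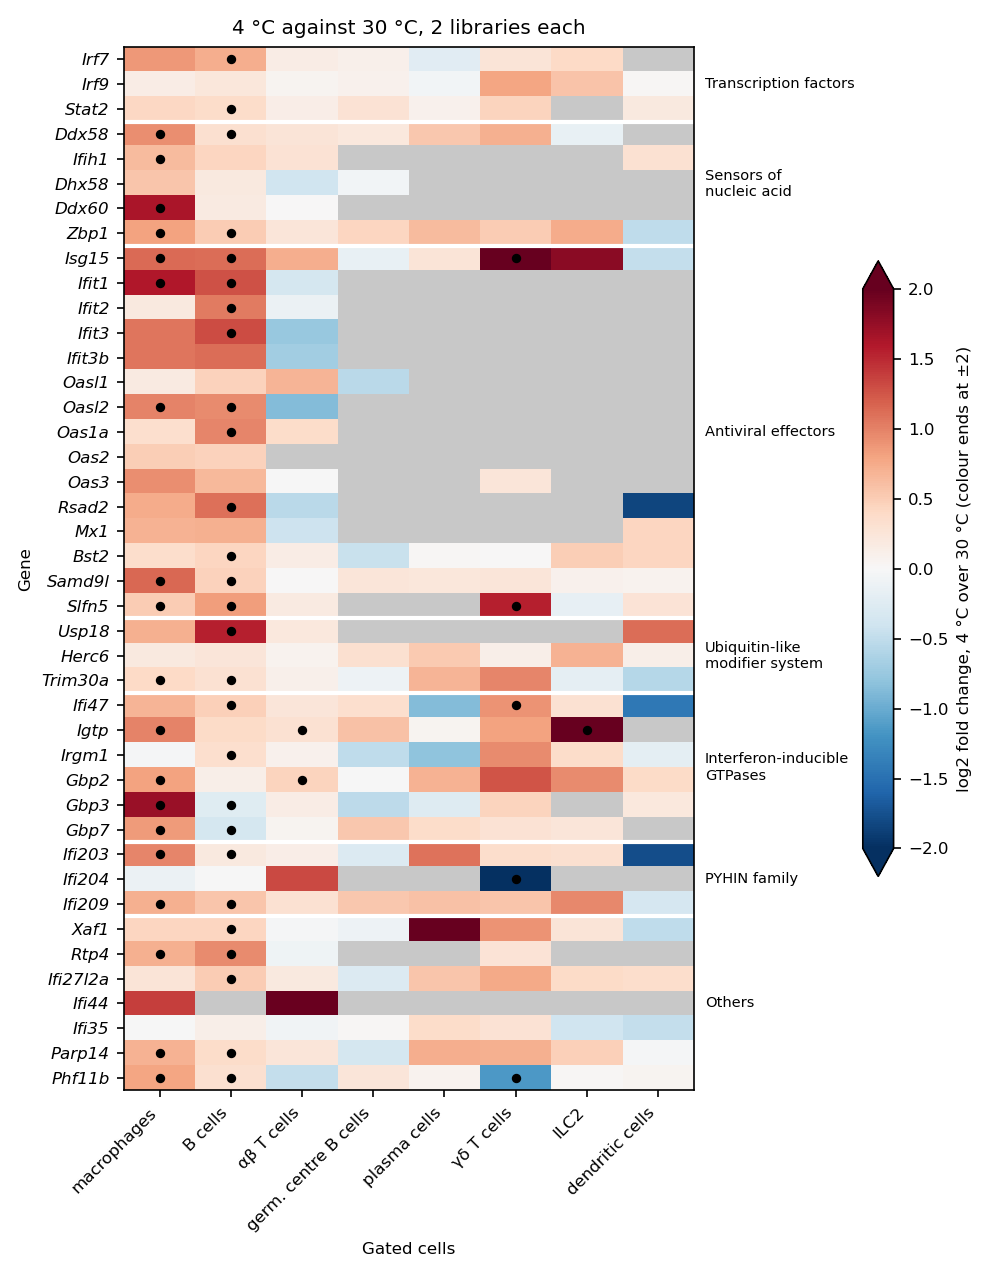
Log2 fold change at 4 °C over 30 °C for each of the 42 genes in 8 cell types, from the edgeR fit over 2 libraries per temperature, with the colour ending at ±2. Black dots mark adjusted p under 0.05 and grey marks genes not tested. Dots fill much of the macrophage (19) and B cell (27) columns, and 2 stand in the αβ T cell column.

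In B cells 25 of 41 genes tested rose and 2 fell, against 7.81% and 8.45% of all genes. The median log2 fold change was 0.45, against -0.0055 over all genes, and DESeq2 called 14 higher and 0 lower. Ifi44, with 11 UMIs in all, was not tested. The largest changes were in genes with low levels in B cells. Of the antiviral effectors 10 of 15 rose, and of the transcription factors Irf7 and Stat2 did. Usp18, which removes ISG15 from proteins and binds IFNAR2 to damp the signal, stood at 2.24, 1.19, 5.98 and 5.00 CPM (1.55 ± 0.26, adjusted p = 0.0015). Isg15 itself stood at 10.3, 7.34, 21.6 and 20.2 CPM (1.12 ± 0.13, adjusted p = 9.3e-05). In both, the cold libraries were close to each other and above both warm ones.

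Of the 4 members of the Ifit family of RNA-binding effectors, 3 rose in B cells. Ifit3 stood at 8.90, 3.29, 18.6 and 14.5 CPM (1.30 ± 0.27, adjusted p = 0.0061), Ifit1 at 2.14, 1.08, 4.44 and 4.07 CPM (1.27 ± 0.28, adjusted p = 0.0077) and Ifit2 at 1.84, 1.57, 3.61 and 3.93 CPM (1.04 ± 0.23, adjusted p = 0.0081). For all of them 30 °C replicate 1 was the higher of the warm libraries and both cold libraries were above it. Ifit3b, a near copy of Ifit3, did not pass (2.59, 0.648, 3.85 and 3.88 CPM). Rsad2 stood at 1.79, 1.08, 3.73 and 3.04 CPM (1.11 ± 0.28, adjusted p = 0.017) and Oas1a at 2.39, 1.84, 4.50 and 4.49 CPM (0.97 ± 0.21, adjusted p = 0.0081). Rtp4 stood at 6.91, 3.56, 11.8 and 10.3 CPM (0.95 ± 0.21) and Oasl2 at 3.03, 1.57, 5.50 and 4.16 CPM (0.94 ± 0.27). Slfn5 stood at 12.2, 9.13, 22.1 and 19.1 CPM (0.83 ± 0.13). Irf7, the regulator that amplifies type I interferon genes, stood at 8.71, 5.83, 14.0 and 12.3 CPM (0.73 ± 0.16). In these genes too both cold libraries were above both warm ones. Among the more abundant genes, Ifi27l2a stood at 455, 417, 664 and 666 CPM (0.50 ± 0.05, adjusted p = 1.7e-05) and Samd9l at 71.8, 73.4, 103 and 112 CPM (0.46 ± 0.06). The other 12 that rose, Ifi209, Ifi203, Zbp1, Ddx58, Trim30a, Stat2, Bst2, Phf11b, Irgm1, Ifi47, Xaf1 and Parp14, had log2 fold changes from 0.19 to 0.55. The 2 that fell were Gbp7 (34.3, 29.6, 27.3 and 26.7 CPM, -0.36 ± 0.08, adjusted p = 0.0083) and Gbp3 (30.4, 29.4, 27.4 and 27.4 CPM, -0.24 ± 0.06, adjusted p = 0.027).

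The warm libraries of the B cells were not alike. At 30 °C replicate 1 exceeded replicate 2 for 39 of the 42 genes, and at 4 °C for 20, with no such count made over all genes. Without 30 °C replicate 2, 13 genes were called higher and 1 lower. In all leave-out fits 12 of the 27 calls held, those of Ifi209, Ifi27l2a, Ifi47, Ifit1, Ifit2, Ifit3, Isg15, Rtp4, Samd9l, Slfn5, Trim30a and Usp18.

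In αβ T cells 2 of 41 genes rose and 0 fell, against 2.06% and 2.64% of all genes, so the count was close to the background. Both were GTPases. Gbp2 stood at 27.1, 24.1, 36.3 and 36.4 CPM (0.45 ± 0.08, adjusted p = 0.027) and Igtp at 74.0, 67.1, 87.9 and 94.1 CPM (0.31 ± 0.07, adjusted p = 0.048). At 30 °C replicate 1 exceeded replicate 2 for 41 of the 42 genes, again with no such count over all genes. Ifit1 stood at 39.1 and 7.47 CPM in the warm libraries and 21.2 and 16.5 CPM in the cold ones, so the groups overlapped. Ifit3 stood at 30.1, 4.64, 11.6 and 9.78 CPM and Isg15 at 63.3, 32.5, 80.7 and 84.4 CPM. Neither call held in all fits with 1 library left out. Without 30 °C replicate 1 there were 4 higher and 0 lower, and without 30 °C replicate 2 there were 0 higher and 6 lower. Without 4 °C replicate 1 there was 1 call, and without 4 °C replicate 2 edgeR made 0, with 9 at an unadjusted p under 0.05. DESeq2 called 0 higher and 1 lower.

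The changes were then compared between cell types by the interaction of temperature and cell type. Between macrophages and B cells 6 of 42 genes differed, all with the larger change in macrophages, against 3.3% of all genes in that direction. Gbp3 had the largest difference (log2 1.98 ± 0.21, adjusted p = 6.2e-06). It rose in macrophages, while in B cells edgeR called a small fall that DESeq2 did not call. Ddx60 (1.50 ± 0.25) and Gbp7 (1.22 ± 0.17) followed, then Ifi203, Samd9l and Gbp2 with differences of 0.81, 0.73 and 0.70. For Gbp7 the edgeR directions were again opposite, and its fall in B cells was also not called by DESeq2. Ddx60 in B cells stood at 5.62, 4.43, 5.50 and 6.69 CPM. The Ifit genes, Isg15 and Oasl2 did not pass this test, which does not show that they changed alike.

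Between macrophages and αβ T cells 11 genes had the larger change in macrophages and 1, Ifi204, the smaller, against 3.28% and 3.2% of all genes. The largest were Ifit1 (1.93 ± 0.31, adjusted p = 0.00049), Oasl2 (1.88 ± 0.31), Ifit3b (1.84 ± 0.53), Ifit3 (1.77 ± 0.31), Ddx60 (1.63 ± 0.26) and Gbp3 (1.60 ± 0.22). Without 30 °C replicate 2 the count was 19, and without 4 °C replicate 2 it was 7. Between B cells and αβ T cells 11 had the larger change in B cells and 2, Gbp7 and Gbp3, the smaller, against 1.63% and 1.67%. The largest were Ifit3 (2.02 ± 0.26, adjusted p = 0.0016), Oasl2 (1.83 ± 0.32), Ifit3b (1.78 ± 0.39), Ifit1 (1.63 ± 0.31), Rsad2 (1.61 ± 0.37) and Usp18 (1.32 ± 0.30). Oasl2 in αβ T cells stood at 4.39, 2.39, 1.97 and 1.89 CPM, a lower level in both cold libraries that did not pass the test within that cell type. Without 30 °C replicate 1 only Phf11b and Rtp4 of the 13 differed.

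**Figure D3:**
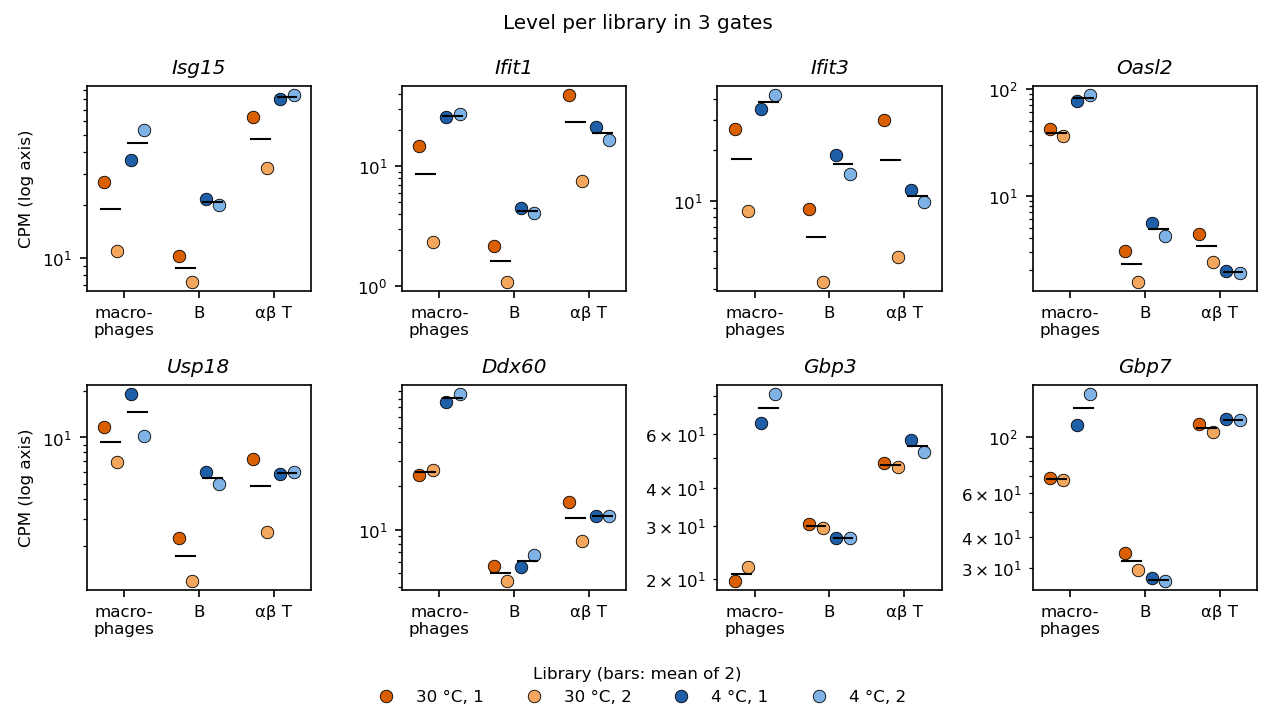
Level of 8 genes in each library (points, CPM on a log axis with its own range per gene) in macrophages, B cells and αβ T cells, with bars at the mean of the 2 libraries of a temperature. Gbp3 and Gbp7 lie higher at 4 °C in macrophages and lower at 4 °C in B cells, and the warm libraries of Ifit1 and Ifit3 lie far apart in αβ T cells.

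The smaller cell types gave few calls. In γδ T cells, which numbered 216, 232, 119 and 36, 3 of 27 genes rose and 2 fell, against 2.81% and 4.52% of all genes. Isg15 stood at 7.73, 2.62, 29.0 and 15.1 CPM (2.18 ± 0.47, adjusted p = 0.014), Slfn5 at 6.32, 6.54, 23.4 and 12.6 CPM (1.55 ± 0.38) and Ifi47, a GTPase, at 31.6, 32.7, 66.1 and 60.5 CPM (0.90 ± 0.19). In each, both cold libraries were higher than both warm ones. Phf11b fell (74.1, 88.0, 41.9 and 32.8 CPM, -1.14 ± 0.20, adjusted p = 0.0042). Ifi204 fell from 15 and 23 UMIs to 0 and 0, with an adjusted p of 0.023, at least 3.51-fold lower when 3 UMIs over both cold libraries are taken as the floor. Without 4 °C replicate 1 edgeR called 0 of 29, with 8 at an unadjusted p under 0.05, and without 4 °C replicate 2 there were 9 higher and 2 lower. In ILC2, Igtp rose (3.35, 9.62, 35.7 and 38.3 CPM, 2.15 ± 0.51, adjusted p = 0.044) and was the only call of 22 genes tested, against 0.443% of all genes that rose and 1.22% that fell, and DESeq2 made none.

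In germinal centre B cells, plasma cells and dendritic cells edgeR called 0 of 25, 0 of 23 and 0 of 24 genes, against 0.615%, 0.586% and 1.76% of all genes, and DESeq2 called 0 in each. At an unadjusted p under 0.05 there were 1, 9 and 5. The members' median log2 fold changes were 0.016, 0.37 and 0.042.

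Stromal and lymphatic endothelial cells were few, entered no fit and are given as levels with no test. In stromal cells, 27, 30, 40 and 27 in number, Ifit1 stood at 383, 177, 20.5 and 44.2 CPM and Rsad2 at 100, 169, 2.28 and 0 CPM. Both were lower in both cold libraries. Ifit3 stood there at 253, 160, 9.13 and 24.1 CPM. How few of the stromal cells carried much of such transcripts is given below. The summed level of the 42 genes was 5302, 4874, 2810 and 3028 CPM. The median depth of these cells also differed, with 4202, 3760, 11463 and 11955 UMIs, and its part was not tested. In lymphatic endothelial cells, Bst2, which encodes the virus-tethering protein tetherin, stood at 678, 668, 588 and 927 CPM and Ifi44 at 60.8, 43.4, 11.5 and 39.3 CPM.

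Sums over cells do not show whether a few cells or many carry the transcripts. Each cell was therefore thinned to 4000 UMIs and scored by how many of 16 core genes had a UMI (Isg15, Ifit1, Ifit2, Ifit3, Ifit3b, Irf7, Oasl1, Oasl2, Oas1a, Oas2, Oas3, Rsad2, Usp18, Mx1, Rtp4 and Zbp1). Most cells had 0 or 1. A small group with at least 4, called the high range here, was found in macrophages (86 of 805 cells), αβ T cells (200 of 6026) and B cells (106 of 7931). The cut marks a range and not a cell type, since 59 macrophages, 203 αβ T cells and 59 B cells had 3 core genes, just under it, and 30, 69 and 33 had 4. In plasma cells 0 of 357 cells, over all 4 libraries, were in the range, which by counting alone allows up to 0.840% of cells with 4 core genes detected at 4000 UMIs and sets no limit on cells that express them, and in germinal centre B cells 1 of 855 was. Of the stromal cells deep enough to be thinned, 2 of 14, 2 of 14, 2 of 29 and 1 of 17 were in the range. These few held 91.1%, 81.5%, 38.8% and 36.1% of the core UMIs of those stromal cells.

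In macrophages the share in the high range was 5.63% (exact 95% interval 2.46 to 10.8) and 6.29% (3.06 to 11.3) in the warm libraries, against 12.2% (9.05 to 15.9) and 17.5% (11.3 to 25.2) in the cold ones. Both cold libraries were above both warm ones. The size of the difference depended on the cut, with 8.85 percentage points from 4 core genes and 1.21 from 6. The means were 5.96% ± 0.464 and 14.8% ± 3.74 (SD, n = 2), and the two-sided exact permutation test gave p = 0.333, the smallest value that 2 libraries against 2 allow. In B cells the shares were 1.15% (0.740 to 1.71) and 0.203% (0.0553 to 0.519) in the warm libraries, against 2.30% (1.64 to 3.13) and 1.79% (1.27 to 2.44) in the cold ones, also without overlap (exact permutation p = 0.333). The shares of αβ T cells were 5.03% (3.93 to 6.32), 1.34% (0.793 to 2.10), 3.82% (2.95 to 4.85) and 3.00% (2.23 to 3.95), and the groups overlapped (exact permutation p = 1.0). The lowest share was that of 30 °C replicate 2 in αβ T cells and in B cells alike. Without thinning, the macrophage shares were 17.4%, 14.3%, 25.3% and 32.9%. Intervals cover counting error only.

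**Figure D4:**
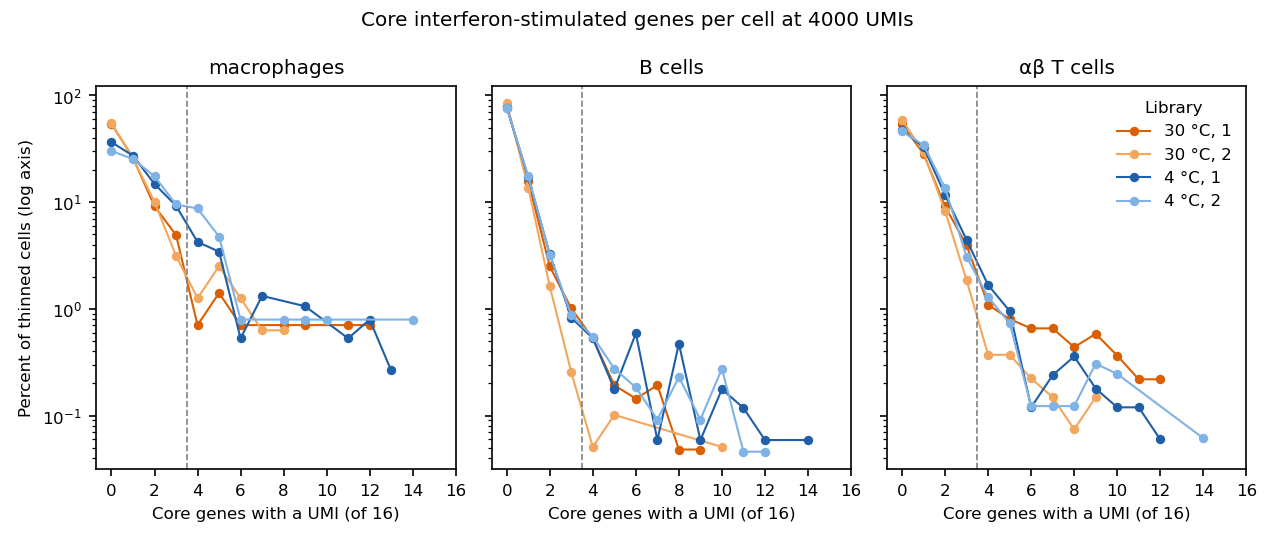
Percent of cells (log axis) by the number of the 16 core genes with a UMI after thinning to 4000 UMIs, for each library in macrophages, B cells and αβ T cells. The dashed line marks the cut at 4 genes, and numbers of genes found in no cell of a library are not drawn. A thin tail of cells reaches 8 or more core genes in each cell type.

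In macrophages, B cells and αβ T cells, the cells of the high range held between 11.9% and 60.3% of the core transcripts. They carried 54.8%, 32.4%, 52.7% and 60.3% of the core UMIs of macrophages, 23.3%, 11.9%, 45% and 41.8% of those of B cells and 53.4%, 15.2%, 29.0% and 27.1% of those of αβ T cells. The members outside the core list, which did not choose these cells, were also higher in them. In macrophages 24 of 25 such members were higher in the high range than in the other cells in all 4 libraries, with a median ratio of 3.33. For αβ T cells it was 25 of 25 (median ratio 4.37) and in B cells 19 of 24 (median ratio 5.65). The same share was not counted over all genes. Among listed pathway genes that are not members (below), it was 22 of 49 in macrophages, 29 of 52 in αβ T cells and 21 of 51 in B cells. Their median ratios were 1.77, 1.67 and 1.75. These values are a description, since genes of 1 pathway and cells chosen by it are not independent. The largest ratios in B cells were those of Slfn5 (331 against 10.8 CPM), Ifih1 (26.9 against 2.13 CPM) and Ddx60 (59.5 against 4.78 CPM). Gbp3 was higher in the high range in 1 of 4 libraries, with 29.6, 15.8, 20.6 and 29.1 CPM in the B cells of the high range and 30.4, 29.5, 27.5 and 27.4 CPM in the others.

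When the high range and the cells too shallow to be thinned were left out, a choice made after seeing the data, the members outside the core list still changed in macrophages. Of 25 tested, 11 rose and 1, Ifi204, fell (-0.38 ± 0.11), against 14 and 0 of 26 in all macrophages. Of all genes in that fit 8.21% rose and 7.58% fell. Ddx60 (1.7), Gbp3 (1.7) and Samd9l (1.24) kept log2 fold changes near those in all macrophages. In B cells 4 rose and 2 fell of 25, against 14 and 2 of 25 in all B cells, with 7.18% and 7.87% of all genes. Those that rose were Ifi209, Samd9l, Trim30a and Ifi27l2a, and Gbp7 and Gbp3 fell. The median log2 fold change of the 25 was 0.22, against 0.32 in all B cells. Ifi47, Parp14, Ifi203, Slfn5 and Stat2 stayed positive and lay just above the threshold (edgeR adjusted p from 0.051 to 0.057). Why the count was lower than in all B cells was not tested. Among αβ T cells 5 rose and 1 fell of 25, against 2 and 0 of 26 in all αβ T cells, with 2.11% and 2.76% of all genes. Those that rose were Gbp2 (0.50), Ifi209 (0.36), Parp14 (0.32), Ifi47 (0.31) and Igtp (0.30), and Phf11b fell (-0.47). Core transcripts summed to 81.4, 50.2, 136 and 128 CPM in all B cells and to 63.2, 44.3, 74.6 and 75.8 CPM in the B cells outside the high range. The second set also left out the shallow cells. Core genes chose the high range, so a lower sum outside it follows from that choice and is a description only.

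Among the genes of the pathway that are not members, the ligands came first. No UMI of Ifnb1, of the 5 listed Ifna genes, of Ifne or of Ifnl2 and Ifnl3 was found in the 216621798 UMIs of the kept cells, and Ifnk and Ifnz had 6 and 16 UMIs. Interferon gamma was detected. Ifng had 338, 414, 896 and 1032 UMIs over all kept cells, and in αβ T cells it stood at 16.7, 25.6, 49.6 and 58.3 CPM, a rise of 1.29 on the log2 scale (± 0.17 SE, adjusted p = 0.0073). Both cold libraries lay above both warm ones. In γδ T cells it stood at 21.8, 11.1, 2.42 and 12.6 CPM.

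Ifngr1, the ligand-binding chain of the interferon gamma receptor, fell in αβ T cells (270, 264, 119 and 113 CPM, -1.26, adjusted p = 6.2e-05), in γδ T cells (272, 301, 175 and 164 CPM, -0.85) and in ILC2 (361, 292, 98.7 and 109 CPM, -1.75). In macrophages it stood at 309, 360, 296 and 269 CPM and did not pass, while Ifngr2 (0.59), Ifnar1 (0.53) and Il10rb (0.52) rose. Irf1, an early target of interferon gamma, rose in macrophages (0.80), B cells (0.42) and αβ T cells (0.44). Socs1, which inhibits JAK kinases, rose in γδ T cells (39.7, 33.0, 139 and 101 CPM, 1.7).

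**Figure D5:**
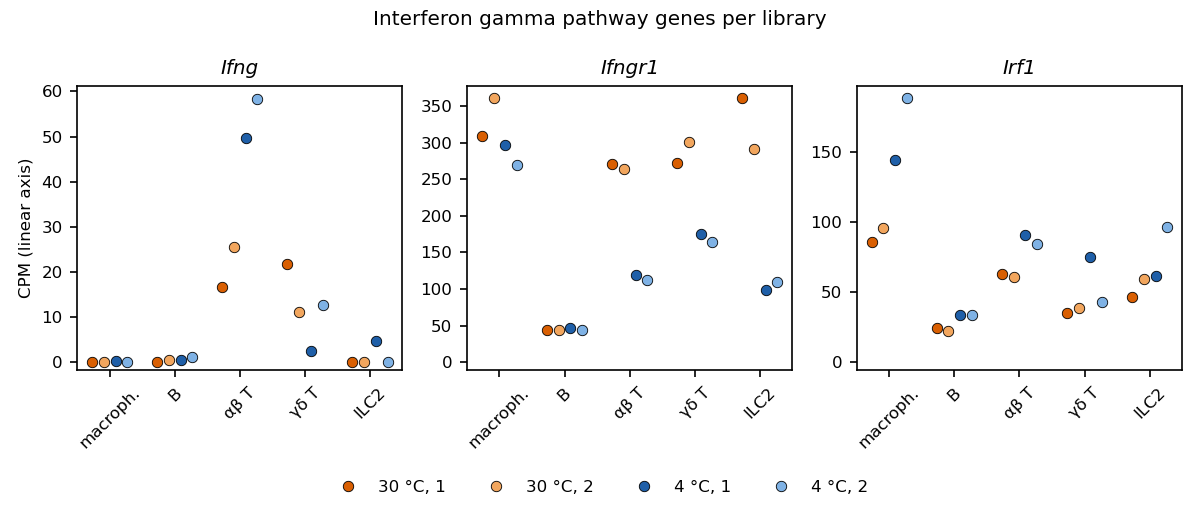
Level of Ifng, Ifngr1 and Irf1 in each library (points, CPM on a linear axis) in 5 cell types. In αβ T cells Ifng lies higher and Ifngr1 lower in both 4 °C libraries.

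Of the 66 listed pathway genes in the matrices, 15 rose and 8 fell of 52 tested in macrophages, 11 and 4 of 54 in B cells, 5 and 2 of 51 in αβ T cells, 6 and 1 of 46 in γδ T cells, 0 and 1 of 34 in ILC2 and 0 and 1 of 38 in dendritic cells, with 0 of 39 in germinal centre B cells and in plasma cells. The shares of all genes that rose and fell were 8.21% and 7.68% in macrophages, 7.81% and 8.45% in B cells, 2.06% and 2.64% in αβ T cells, 2.81% and 4.52% in γδ T cells and 0.443% and 1.22% in ILC2. In dendritic cells 1.76% were called in either direction, in germinal centre B cells 0.615% and in plasma cells 0.586%. Falls among the pathway genes were thus near the background in B cells, αβ T cells and γδ T cells. In macrophages the further interferon-induced genes with the largest rises were Cmpk2, a mitochondrial nucleotide kinase beside Rsad2 in the genome (8.63, 3.47, 25.7 and 23.9 CPM, 2.01), Cxcl10 (93.1, 12.1, 172 and 202 CPM, 1.79) and Gbp4 (1.66). Cxcl9, a CXCR3 ligand like Cxcl10, rose as well (144, 110, 178 and 288 CPM, 0.80). Trim25, an E3 ligase of RIG-I signalling, fell (247, 221, 110 and 140 CPM, -0.98). The endosomal RNA receptor Tlr7 fell in macrophages (166, 158, 79.7 and 58.6 CPM, -1.22) and in B cells (-0.42), and Pias1, a SUMO ligase that inhibits interferon signalling, fell in macrophages (-1.06). Jak1 fell in macrophages (-0.61) and Jak2 in B cells (-0.75), while Ptpn6, a phosphatase that acts on JAK kinases, rose in macrophages (1.32), B cells (0.32) and αβ T cells (0.42).

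Reads of 4 members could be shared with near copies. Of the 50-base words in the last 500 bases of their transcripts, 63.4% of Ifi209 were also present in other genes (most in Ifi214), 56.1% of Oas1a (Oas1g), 42.6% of Phf11b (Phf11c) and 14.9% of Ifit3 (Ifit3b), and the values of these genes and of Ifit3b are uncertain to that extent. For every other member the share was at most 4.5%.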

How the data were processed

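Single-cell RNA-seq libraries (10x Genomics, 3′ chemistry) were made from sorted eGFP+ cells, 2 libraries per temperature, each from 4 pooled mice. The authors deposited UMI counts per gene and cell (Cell Ranger 3.1.0 in the submitters' processing notes, 3.0.0 in the matrix header, with STAR as aligner and Seurat 4.2.0 downstream), already limited to barcodes called as cells. As the study's methods describe, cells with at least 100 genes and genes in at least 10 cells were read, and cells with over 200 and under 5000 genes and under 7.5% mitochondrial UMIs were kept. These limits are the study's filter for low-quality, dying and doublet cells, and no doublet caller was run. Kept libraries held between 53423899 and 54933486 UMIs.

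Cells were assigned to types by counts of marker genes with a UMI, since no annotation of cells was used here. UMIs were summed per type and library and tested with edgeR 4.0.16 (R 4.3.3, TMM, filterByExpr, quasi-likelihood, Benjamini-Hochberg over all genes tested, threshold 0.05), with DESeq2 1.42.0 as an alternative. Fold changes are edgeR estimates with SEs derived from its test. Shares of cells were compared by exact permutation over libraries (scipy 1.17.1 under Python 3.11.15). The edgeR fit was tested on counts simulated from these libraries with known changes. Of 1.5-fold changes it recovered 21.5% in macrophages, 64% in B cells and 57% in αβ T cells. Of its calls there 15.7%, 6.57% and 14.9% were false, above the threshold of 5%. At 4-fold it recovered 94.5%, 95% and 94.5%, with 5.03%, 5.47% and 4.06% of calls false. Counts of calls in different cell types thus differ also in power. Each library is 1 pool of mice, so p-values measure the spread between 2 pools. The members and gene lists were chosen with earlier results of these data known. Values in every library are given for at most 10 called members by size per cell type, the 3 highest in either type of a pair and at most 6 per interaction, and other genes were named after their values were seen. A listed pathway gene is not reported here and is left out of the counts.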

Additional observations from a re-analysis of the deposited data

Results flagged for a closer look

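Temperature changed 31 gene and cell type pairs differently between cell types by a test of the difference itself (edgeR, interaction of temperature and cell type, adjusted p under 0.05), and these are given as differences of log2 fold changes. Between macrophages and B cells the change was larger in macrophages for Gbp3 (1.98), Ddx60 (1.50), Gbp7 (1.22), Ifi203 (0.81), Samd9l (0.73) and Gbp2 (0.70). Ddx60, Gbp3, Gbp7 and Ifi203 passed also with each library left out in turn.

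Between macrophages and αβ T cells the change was larger in macrophages for Ifit1 (1.93), Oasl2 (1.88), Ifit3b (1.84), Ifit3 (1.77), Ddx60 (1.63), Gbp3 (1.60), Rsad2 (1.31), Phf11b (1.28), Samd9l (1.17), Ifi203 (0.87) and Gbp7 (0.82), and smaller for Ifi204 (-1.43). In this comparison 7 of the 12 passed with each library left out in turn, and Gbp7, Ifi204, Ifit3, Ifit3b and Rsad2 did not.

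Between B cells and αβ T cells the change was larger in B cells for Ifit3 (2.02), Oasl2 (1.83), Ifit3b (1.78), Ifit1 (1.63), Rsad2 (1.61), Usp18 (1.32), Ifit2 (1.15), Rtp4 (1.04), Phf11b (0.80), Slfn5 (0.65) and Ifi27l2a (0.30), and smaller for Gbp3 (-0.38) and Gbp7 (-0.41). Only Phf11b and Rtp4 passed with each library left out in turn, since without 30 °C replicate 1 the count was 2. The 3 comparisons share cell types and are not independent of each other.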

How the results depend on the processing

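With DESeq2 the counts of called genes were 7 in macrophages, 14 in B cells, 1 in αβ T cells, 1 in γδ T cells and 0 in ILC2 (1 at an unadjusted p under 0.05), and 6 and 5 for the interactions of macrophages and of B cells with αβ T cells. A stricter gate left 7 in macrophages, 0 in αβ T cells (9 at an unadjusted p under 0.05) and 7 in the interaction of macrophages with αβ T cells. In αβ T cells no filter on low counts gave 0 (9 unadjusted), no upper limit on genes per cell gave 0 (4 unadjusted) and a mitochondrial limit of 15% gave 1. Macrophages with fewer than 2 resident markers, a subset added after seeing the data, gave 0 (3 unadjusted), and there Zbp1, Gbp2 and Parp14 had log2 fold changes of -0.15, -0.33 and -0.013. Under the stricter gate Igtp stood at -0.092 in macrophages and Ifit3 at -0.11 for macrophages against B cells. The causes were not tested. For the fits with DESeq2, another gate or filter, or 1 library left out, the share of all genes called is not given. Their counts show how the calls depend on the fit and are not read as results about the members.

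With 1 library left out, called genes ranged from 11 to 21 in macrophages, 14 to 28 in B cells, 0 to 6 in αβ T cells, 0 to 3 in germinal centre B cells, 0 to 2 in plasma cells, 0 to 11 in γδ T cells, 0 to 4 in ILC2 and 0 to 2 in dendritic cells. For the pairs of cell types the ranges were 35 to 36, 33 to 34 and 31 to 33, and for the interactions 5 to 8, 7 to 19 and 2 to 16. The difference in the share of cells in the high range was 8.85 percentage points in macrophages (6.21 to 11.5 with 1 library left out), 14.2 from 3 core genes, 1.21 from 6 and 13.2 without thinning. In B cells it was 1.37 points (0.890 to 1.84), and 2.41 without thinning. In αβ T cells it ranged from -1.62 to 2.08.

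Deviations of same-numbered libraries had correlations over genes from -0.10 to 0.085 in the cell types tested. With only 2 pairs, this cannot decide whether the replicate numbers pair libraries. With the replicate number as a block 11 genes were called in αβ T cells, 10 higher and 1 lower, 21 in macrophages and 30 in B cells. The block moved no other count by over 1.5 times. A crossed block in ILC2, added after seeing the data, gave 2. For genes called in the main fits, 1281 values over all alternatives kept direction and side of the threshold, 243 kept only the direction, and 5 turned, those named above. This tally pools temperature, cell type and interaction fits, which differed in steadiness. DESeq2 kept 7 of 19 temperature calls in macrophages, 14 of 27 in B cells and 0 of 2 in αβ T cells. Between cell types it kept 36 of 38, 35 of 35 and 31 of 31. With 36 to 232 γδ T cells and 42 to 90 dendritic cells per library, counts of the rarer genes were low, and between 22 and 27 of the 42 genes could be tested in the 5 smaller types.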
